A study of Mus musculus with 5 samples.

Results

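The BTG/TOB family and the poly(A) tail deadenylases that its proteins bind were followed in Atxn1L null HSCs against WT HSCs. The 9 genes were Btg1, Btg2, Btg3, Tob1 and Tob2, and the deadenylases Cnot6, Cnot6l, Cnot7 and Cnot8. A probe set, the array's group of probes for one transcript, was taken if the platform annotation named exactly one of these genes. This gave 25 of the 45037 probe sets fitted and covered 8 of the 9 genes, out of 18193 genes measured, since the only probe set of Btg3 also names the pseudogene Gm7334. The genes were chosen partly on the null minus WT differences of these same 5 arrays, the fall of a Btg1 probe set included. All differences below are therefore descriptions of these arrays, and no member carries a test of its own.

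RNA came from 5 pools of HSCs, 2 from mice null for Atxn1L and 3 from WT mice, all on the C57Bl/6 background. Mice were 6 to 8 weeks old by the labels and 8 weeks old by the methods, and no treatment is named. HSCs were sorted from bone marrow as lineage-negative, Sca-1+ c-Kit+ CD150+ cells within the side population, the cells that exclude Hoechst dye. Atxn1L was inactivated in the germline, so in every cell of the mouse and not in HSCs alone, each array held pooled cells, and no source used here says how many mice a pool held.

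BTG and TOB proteins restrain cell proliferation when overexpressed. Their shared N-terminal domain binds the CAF1-type deadenylases CNOT7 and CNOT8, which sit in the CCR4-NOT complex together with a CCR4-type deadenylase, CNOT6 or CNOT6L. The complex shortens the poly(A) tails of mRNAs, after which the cap is removed and the body degraded. Btg1 and Btg2 are known as genes of resting lymphocytes, and Btg2 is induced both as an immediate early gene and by p53. TOB proteins also bind poly(A)-binding protein through motifs in their C-terminal part.

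The start regions of 3 antiproliferative genes are shown because the family is known for induced transcription. A further reason is that Btg1, with 1 of its 3 probe sets called lower, has a single start in the sequence table. Each window runs from 250 bases before to 50 bases after the start, 5′ to 3′, in RefSeq sequence of build GRCm38.p6. Btg1 lies at chr10:96616751-96617050 on the plus strand, Btg2 at chr1:134079106-134079405 on the minus strand and Tob1 at chr11:94211204-94211503 on the plus strand. Capitals mark the TATA box TATAAA, the CCAAT box and the cyclic AMP response element TGACGTCA, read on either strand.
Btg1: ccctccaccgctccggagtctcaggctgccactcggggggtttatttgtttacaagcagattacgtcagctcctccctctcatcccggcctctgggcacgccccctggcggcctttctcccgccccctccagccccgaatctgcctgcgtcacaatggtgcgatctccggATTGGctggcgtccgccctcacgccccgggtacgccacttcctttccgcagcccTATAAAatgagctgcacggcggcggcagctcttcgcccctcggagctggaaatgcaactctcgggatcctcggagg
Btg2: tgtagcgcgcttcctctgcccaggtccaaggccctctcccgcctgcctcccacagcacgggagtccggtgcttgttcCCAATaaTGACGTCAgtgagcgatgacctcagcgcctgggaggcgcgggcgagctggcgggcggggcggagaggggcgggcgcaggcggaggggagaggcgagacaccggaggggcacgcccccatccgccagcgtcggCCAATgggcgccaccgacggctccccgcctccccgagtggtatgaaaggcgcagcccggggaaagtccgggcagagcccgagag
Tob1: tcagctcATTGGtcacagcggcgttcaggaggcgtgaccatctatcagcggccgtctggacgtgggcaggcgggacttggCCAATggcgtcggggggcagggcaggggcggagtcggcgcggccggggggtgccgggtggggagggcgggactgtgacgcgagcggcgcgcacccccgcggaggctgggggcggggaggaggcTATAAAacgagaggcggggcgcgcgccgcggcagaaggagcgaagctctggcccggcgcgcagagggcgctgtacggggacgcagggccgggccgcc

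The windows of Btg1 and Tob1 hold a TATA box, 26 and 47 bases before the start, and that of Btg2 holds the cyclic AMP response element, the binding sequence of CREB factors. A TATA box was found in 13.6% of the 32817 windows of the same length in the table, a CCAAT box in 37.4%, and the response element in 1.79%. Across the members 14 windows matched 8 genes, with 3 starts for Cnot6l, 4 for Cnot8 and 2 for Btg3. Cnot7 had no window. The octamer TGAATGAA is bound by Capicua, the repressor with which ATXN1L forms a complex. This octamer was in 0 of the 14 windows and in 1.30% of all windows. Only this exact sequence was searched, and it is so rare that nothing is read from 0 of 14. Factor binding was not measured here, so a match is a description of the letters.

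Levels below are log2 values after GCRMA, a normalization that corrects for probe sequence. A difference is the mean of the null arrays minus the mean of the WT arrays on that scale, with its limma standard error (SE). A call, higher or lower, needed a fold of at least 1.5 together with an unadjusted limma p no greater than 0.05. Signals of different probe sets are not on a common scale, so each is set only against itself.

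The Atxn1l probe sets followed the labelled genotype, and 2 of 3 were called lower in null HSCs. One read 3.23 and 3.65 in null arrays, against 6.31, 6.52 and 5.74 in WT arrays. The other read 3.08 and 3.99 in null arrays, against 6.80, 6.69 and 4.98 in WT arrays, where the third WT array lay closest to the null arrays. The HSC marker Procr read 13.23 to 13.54 in null and 13.54 to 13.64 in WT arrays, and Kit 7.87 to 8.12 in null and 8.12 to 8.39 in WT arrays. Of 25 probe sets of 14 measured HSC marker genes, limma called 0, with 2 at an unadjusted p up to 0.05, 11 positive and 14 negative differences, and a range from -0.46 for Meis1 to 0.72 for Mllt3. Slamf1, which encodes the sorted marker CD150, read under 4 in every array with each of its 3 probe sets. Granulocyte genes gave high signals in both genotypes, with a mean over their list of 9.11 to 9.61 in null and 9.04 to 9.69 in WT arrays, and the granule gene Camp at 12.65 to 13.92 in null and 13.05 to 13.88 in WT arrays. The means of the B cell list were 4.01 to 4.14 in null and 3.83 to 4.07 in WT arrays, and of the endothelial and stromal list 3.44 to 3.60 in null and 3.41 to 3.48 in WT arrays. Of 52 measured genes that mark other blood, endothelial and stromal cells, 0 were called by limma. Of their 82 probe sets, 0 had an unadjusted limma p up to 0.05. Over all probe sets 2.38% were called and 5.59% had such a p. Only 18 of these 82 and 14 of the 25 HSC marker probe sets had a mean of at least 5 in a genotype. Below that a change in transcript moves the signal little, so the counts of 0 say little about purity. The Gapdh control differed along its transcript. Its 3′ probe set exceeded its 5′ probe set by 7.33 and 7.21 in null arrays, against 5.89, 6.02 and 5.92 in WT arrays.

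Of the 25 member probe sets, 1 of Btg1 was called lower in null HSCs, and 1 of Cnot7 and 1 of Cnot6l were called higher. Over all probe sets 2.38% were called, 1.25% lower and 1.13% higher. In genes, 3 of 8 measured members had a call, beside 4.48% of all measured genes. Nothing is read from these counts, since the choice of genes used this contrast. After Benjamini-Hochberg adjustment over all 45037 probe sets, limma left 0 of the 25 at a p under 0.05, and 0.00222% of all. By the unadjusted p alone 4 of the 25 passed, beside 5.59% of all, and by the fold alone 3, beside 5.08%. With 2 pools and 3, the smallest p of an exact two-sided test is 0.1. The median difference of the 25 was -0.0047, beside -0.00254 over all probe sets. Null and WT values did not overlap for 10 of the 25, 5 in each direction, and for 14.2% of all probe sets, 6.75% higher and 7.50% lower. For 10 of the 25 the mean stayed under 5 in both genotypes, where a change in transcript moves the signal little. Among the 15 with a mean of at least 5 in a genotype, 3 were called and 7 did not overlap, beside 7.44% and 33.0% of all such probe sets. In whole pools, fewer cells that carry a transcript and less of it per cell cannot be told apart.

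**Figure D1:**
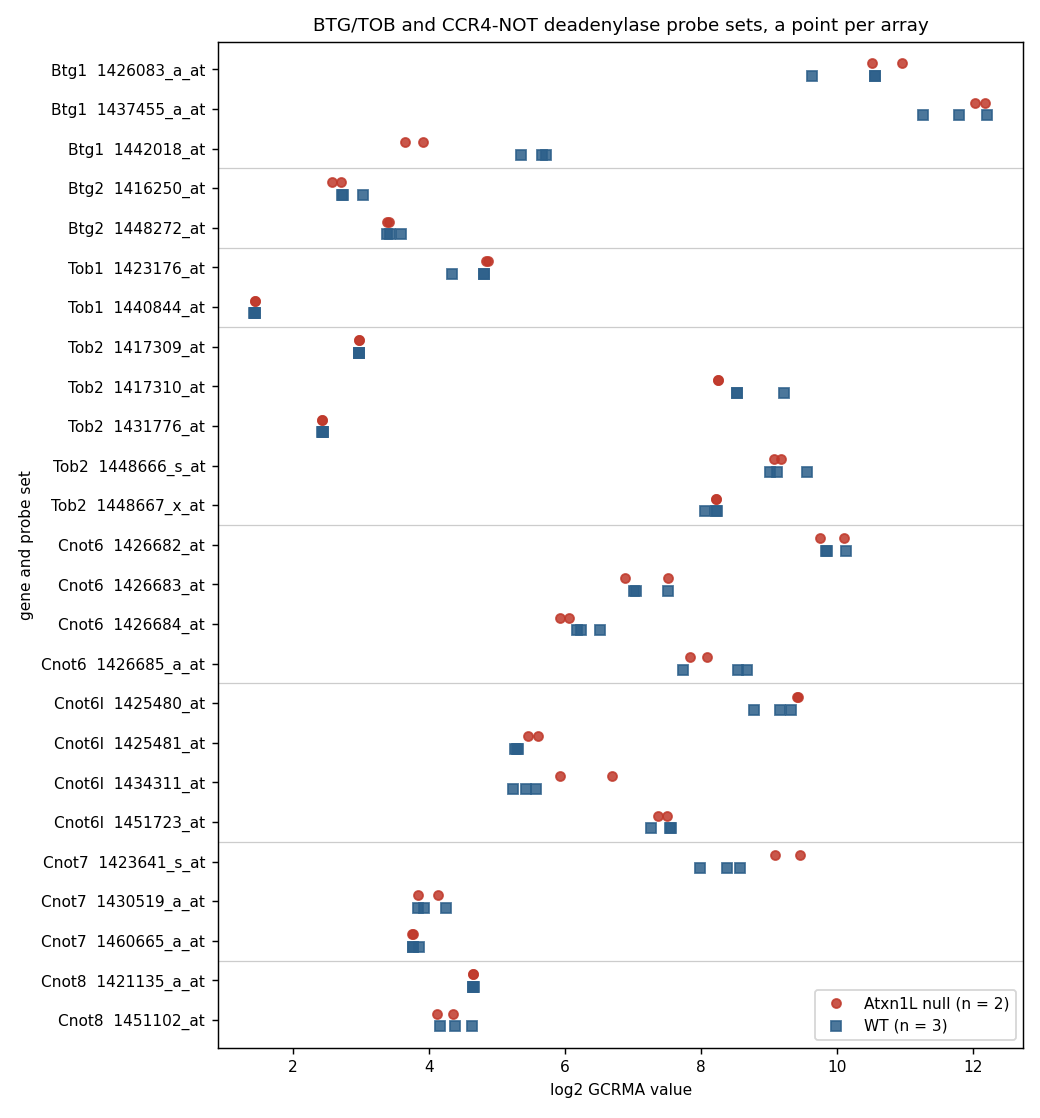
Log2 GCRMA values (horizontal axis) of the 25 member probe sets (vertical axis), with a red circle for each of the 2 Atxn1L null arrays above a blue square for each of the 3 WT arrays. The null points of Btg1 probe set 1442018_at lie at 3.65 and 3.92, left of all WT points, and those of Cnot7 probe set 1423641_s_at at 9.09 and 9.45, right of all WT points.

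Btg1, an antiproliferative gene of resting blood cells, was read by 3 probe sets that did not move together. Probe set 1442018_at read 3.92 and 3.65 in null arrays, against 5.72, 5.66 and 5.35 in WT arrays. Both null values lay below every WT value, by more than the spread within either genotype. The means were 3.78 ± 0.19 (SD, n = 2) in null and 5.57 ± 0.20 (SD, n = 3) in WT HSCs, a log2 difference of -1.79 (SE 0.16). The null values lay in the dim range under 5, so this is a difference in GCRMA signal and no fold in transcript is given. This was the only member call that held without any 1 of the 5 arrays, with differences of -1.93 to -1.66.

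The remaining Btg1 probe sets were not called, and their differences were positive. Probe set 1426083_a_at read 10.95 and 10.52 in null arrays, against 9.62, 10.55 and 10.55 in WT arrays. Probe set 1437455_a_at read 12.17 and 12.02 in null arrays, against 11.27, 12.20 and 11.78 in WT arrays. In both, the genotypes overlapped, and the first WT array was the lowest of the 5. Their differences were 0.49 (SE 0.38, 95% interval -0.60 to 1.59) and 0.35 (SE 0.31, 95% interval -0.55 to 1.24). With 1 array left out in turn these ran from 0.18 to 0.71 and from 0.10 to 0.57. With array weights they were 0.18 (SE 0.18) and -0.10 (SE 0.18), so the sign of the second depended on how the arrays were weighted. The sign of the Btg1 difference thus depended on the probe set, and only the fall of 1442018_at was called. Taking the brightest of the 3 gave a difference of 0.35, averaging all 3 gave -0.32, and neither reading was called.

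The differences of the 3 Btg1 probe sets spanned 2.28 on the log2 scale, and of the 2366 genes on the array with 3 probe sets of their own 1 spanned more. Most of this span is the fall on which Btg1 was partly chosen, so nothing is read from its rank. The annotation used here does not say which part of the transcript each probe set reads. The called probe set and the 5′ probe set of the Gapdh control moved the same way. This Gapdh probe set read 4.63 and 4.78 in null arrays, against 6.03, 6.02 and 6.11 in WT arrays, a difference of -1.34. The middle Gapdh probe set differed by -0.84 and the 3′ probe set by -0.02, where the genotypes overlapped. The beta-actin control differed less. Its 5′ probe set read 5.75 and 5.11 in null arrays, against 5.64, 6.22 and 6.36 in WT arrays, a difference of -0.65 with overlapping genotypes. Its middle and 3′ probe sets differed by -0.11 and 0.14. The 3′ beta-actin probe set exceeded the 5′ probe set by 7.43 and 7.28 in null arrays, against 6.71, 6.60 and 6.40 in WT arrays. In this excess the genotypes did not overlap. Whether uneven signal along transcripts has a part in the Btg1 difference was not tested.

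**Figure D2:**
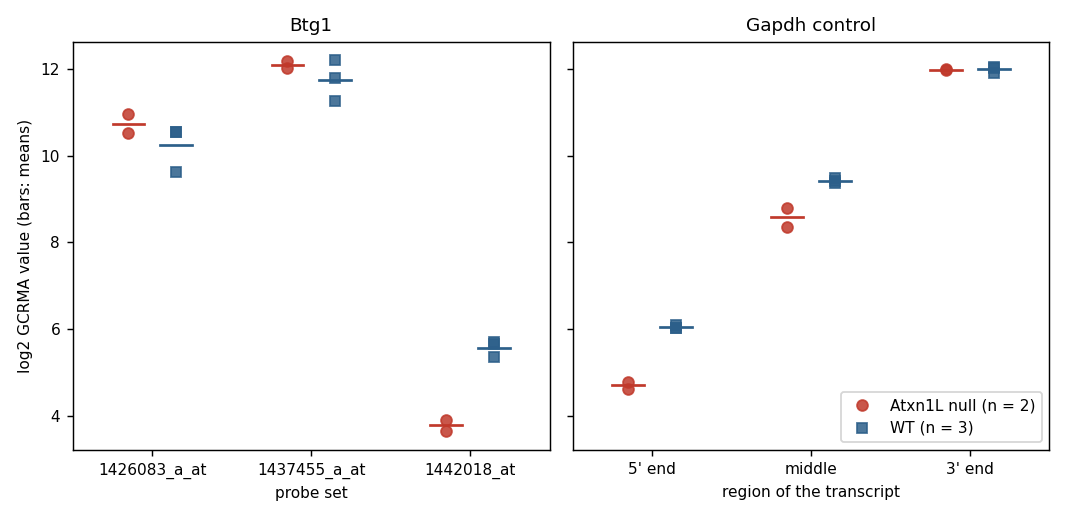
Log2 GCRMA values (vertical axis) of the 3 Btg1 probe sets (left panel) and of the 5′, middle and 3′ probe sets of the Gapdh control (right panel), a red circle for each of 2 Atxn1L null arrays left of a blue square for each of 3 WT arrays, with a bar at each mean. The null arrays lie below the WT arrays for 1442018_at, at means of 3.78 and 5.57, and for the 5′ end of Gapdh, at means of 4.71 and 6.05, while the 3′ values of Gapdh overlap.

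Btg2, the family member induced by p53 and by growth signals, gave dim signals in HSCs of both genotypes. Probe set 1416250_at read 2.58 and 2.71 in null arrays, against 2.74, 2.73 and 3.03 in WT arrays. Both null values lay just below the WT values, by less than the spread within either genotype, and the difference was -0.19 (SE 0.12). Probe set 1448272_at read 3.39 and 3.41 in null arrays, against 3.38, 3.60 and 3.42 in WT arrays. Here the genotypes overlapped, with a difference of -0.06 (SE 0.08). The array medians over all probe sets were 3.03 to 3.07.

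Btg3, which shares the BTG domain and binds the same deadenylases, could not be read on its own. The probe set annotated to both Btg3 and Gm7334 read 7.07 and 6.91 in null arrays, against 7.66, 7.41 and 7.28 in WT arrays. Both null values lay below all WT values. The difference of -0.46 (SE 0.14), a fold of 1.38, did not reach the required fold, and the share of the pseudogene in this signal is not known. Btg4, a family member known from oocytes and testis and not among the 9 genes, read 2.51 to 2.54 in all 5 arrays.

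Tob1, a restrainer of T cell proliferation, read 4.83 and 4.86 in null arrays with probe set 1423176_at, against 4.34, 4.81 and 4.81 in WT arrays. The null values lay just above all WT values, and the difference of 0.20 (SE 0.18) came mostly from the first WT array, without which it was 0.04. The other Tob1 probe set read 1.44 to 1.45 in all 5 arrays.

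Tob2, the second TOB protein, had 5 probe sets, and 0 of them were called. Probe set 1417310_at read 8.24 and 8.25 in null arrays, against 9.21, 8.53 and 8.53 in WT arrays. Both null values lay below all WT values, with the first WT array well above the others. The difference of -0.51 (SE 0.26, 95% interval -1.26 to 0.24) was 1.42-fold, short of the required fold, and without the first WT array it was -0.28. The 2 probe sets that Affymetrix marks as shared between transcripts or open to cross-hybridization, 1448666_s_at and 1448667_x_at, differed by -0.10 (SE 0.19) and 0.05 (SE 0.07). The remaining Tob2 probe sets read 2.98 and 2.44 in both genotypes.

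Of the 12 probe sets of BTG/TOB proteins, 1 was called lower and 0 higher, with 7 negative and 5 positive differences and a median of -0.00326. Of the 13 probe sets of the deadenylases, 2 were called higher and 0 lower, with 8 negative and 5 positive differences and a median of -0.0142. Over all probe sets 1.25% were called lower and 1.13% higher. Nothing is read from these counts either, since the genes were chosen partly on this contrast.

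Cnot7, a CAF1-type deadenylase and the catalytic subunit that BTG/TOB proteins bind, was called higher with 1 of its 3 probe sets. Probe set 1423641_s_at read 9.45 and 9.09 in null arrays, against 7.98, 8.58 and 8.38 in WT arrays. The lower null value exceeded the highest WT value by more than the range of the null arrays but less than the range of the WT arrays. The means were 9.27 ± 0.26 (SD, n = 2) in null and 8.31 ± 0.30 (SD, n = 3) in WT HSCs, a log2 difference of 0.96 (SE 0.24), or 1.94-fold. With 1 array left out in turn the difference ran from 0.78 to 1.14, and the call ended without the first null array, at 0.78, or without the third WT array, at 0.99.

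The remaining Cnot7 probe sets were dim. Probe set 1430519_a_at read 3.84 and 4.13 in null arrays, against 4.25, 3.85 and 3.93 in WT arrays, and differed by -0.02 (SE 0.17). Probe set 1460665_a_at read 3.76 and 3.77 in null arrays, against 3.77, 3.77 and 3.85 in WT arrays, and differed by -0.03 (SE 0.03). In both the genotypes overlapped. When the 3 probe sets were averaged, Cnot7 differed by 0.30 and was not called. The suffix of the called probe set marks probes shared by several transcripts, and which of them gave the signal is not known from the files.

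Cnot8, the paralog of Cnot7 that BTG/TOB proteins also bind, showed no call in 2 dim probe sets. Probe set 1451102_at read 4.36 and 4.13 in null arrays, against 4.38, 4.63 and 4.17 in WT arrays. The genotypes overlapped, and the difference was -0.15 (SE 0.17, 95% interval -0.64 to 0.34). Probe set 1421135_a_at read 4.65 to 4.66 in all 5 arrays.

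Cnot6l, a CCR4-type deadenylase, read higher in both null arrays than in every WT array with 3 of its 4 probe sets, and 1 of them was called. All 4 had a mean of at least 5 in a genotype. Of all 12936 such probe sets, 2228 had both null values above every WT value. Probe set 1434311_at read 6.69 and 5.93 in null arrays, against 5.58, 5.42 and 5.23 in WT arrays. The first null array stood well above the other 4 arrays. The means were 6.31 ± 0.54 (SD, n = 2) in null and 5.41 ± 0.18 (SD, n = 3) in WT HSCs, a difference of 0.90 (SE 0.28), or 1.87-fold. Without the first null array it was 0.52, and the call held only without the second null array, at 1.28.

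The differences of the other Cnot6l probe sets stayed below the required fold. Probe set 1425481_at read 5.61 and 5.45 in null arrays, against 5.26, 5.30 and 5.31 in WT arrays. It differed by 0.24 (SE 0.05), with a spread among the WT arrays of only 0.03 (SD, n = 3). Probe set 1425480_at read 9.41 and 9.42 in null arrays, against 9.16, 9.32 and 8.78 in WT arrays, and differed by 0.33 (SE 0.18). Probe set 1451723_at read 7.37 and 7.50 in null arrays, against 7.54, 7.27 and 7.56 in WT arrays. This last one overlapped between genotypes and differed by -0.02 (SE 0.12).

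Cnot6, the other CCR4-type deadenylase, was not called with any of 4 probe sets. Probe set 1426682_at read 10.11 and 9.75 in null arrays, against 9.85, 10.13 and 9.84 in WT arrays, a difference of -0.01 (SE 0.16). Probe set 1426683_at differed by 0.00301 (SE 0.28), with null values of 7.52 and 6.88 around WT values of 7.05, 7.51 and 7.02. In both, the first null and the second WT array were the highest of their genotype.

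The remaining Cnot6 probe sets read lower on average in null HSCs. Probe set 1426684_at read 6.05 and 5.93 in null arrays, against 6.23, 6.52 and 6.18 in WT arrays, with no overlap and a difference of -0.32 (SE 0.13). Probe set 1426685_a_at read 8.08 and 7.84 in null arrays, against 8.55, 8.67 and 7.73 in WT arrays. The third WT array was the lowest of the 5 here. The difference of -0.36 (SE 0.35) widened to -0.65 without that array, at which the probe set was called lower.

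**Figure D3:**
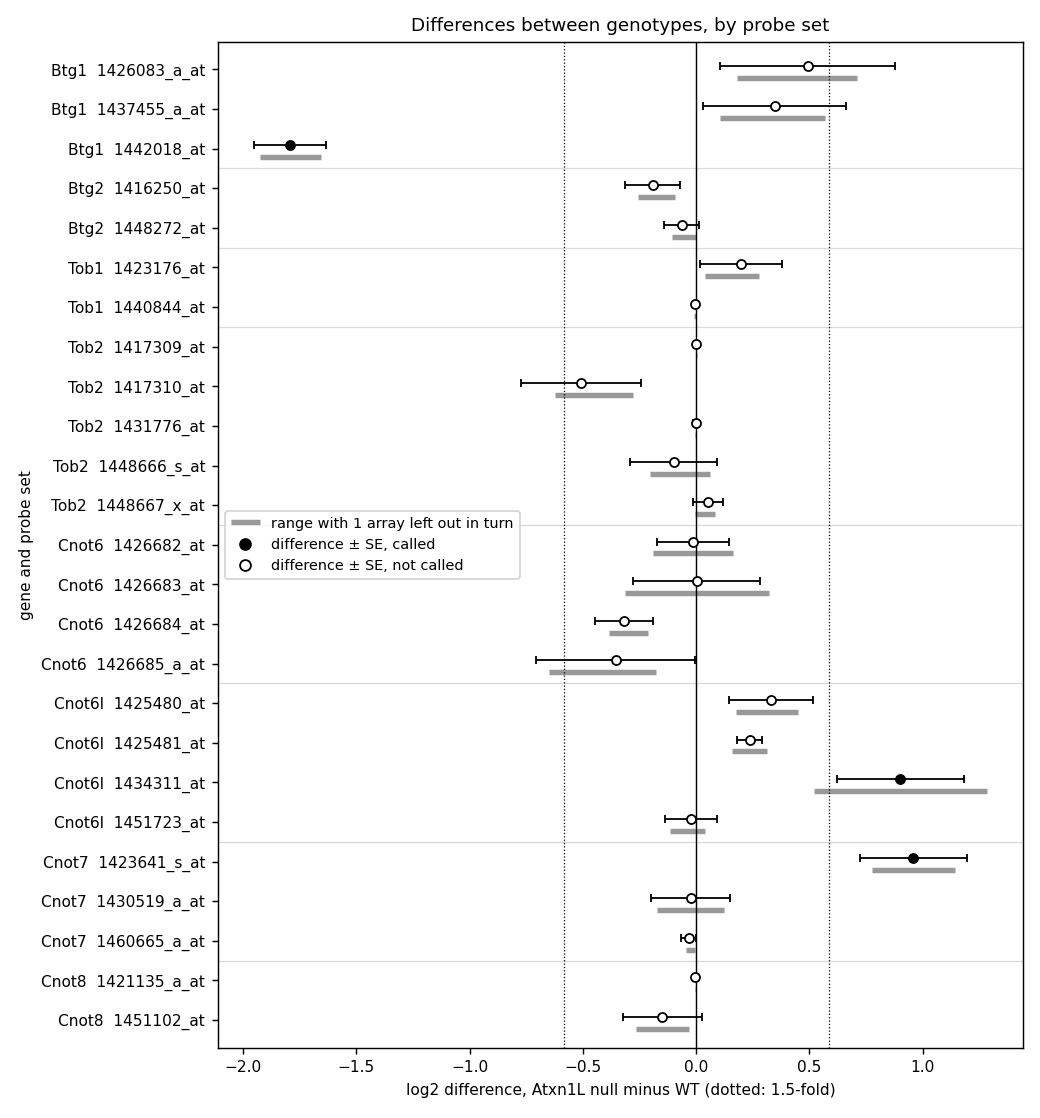
Log2 difference between Atxn1L null and WT HSCs (horizontal axis) of each member probe set (vertical axis), with bars of 1 SE from 2 and 3 arrays, filled where called, and in grey the range with 1 array left out in turn. Dotted lines mark a 1.5-fold change. Btg1 probe set 1442018_at lies at -1.79, apart from the other Btg1 probe sets at 0.49 and 0.35, and 1 probe set each of Cnot7 and Cnot6l lies past the right dotted line.

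No other measured subunit of the CCR4-NOT complex was called, where 7 of 9 listed had probe sets of their own. Of 22 probe sets of 7 measured genes, 0 were called by limma, beside 2.38% of all probe sets. By the unadjusted limma p, 1 was at up to 0.05, beside 5.59% of all. The differences ran from -0.76 to 0.50 with a median of 0.02. The lowest was a Cnot2 probe set, chosen after its values were seen, that read 4.92 and 6.77 in null arrays, against 6.79, 6.05 and 6.97 in WT arrays, with an SE of 0.69 and overlapping genotypes. Cnot2, a scaffold subunit, read 11.29 in all 5 arrays with the brightest of its 6 probe sets. Cnot4, a RING-type E3 ligase of the complex, with the brightest of its 5 probe sets read 8.01 and 7.85 in null arrays, against 7.49, 7.83 and 8.03 in WT arrays. Cnot10, chosen after its values were seen, read 6.24 and 6.35 in null arrays, against 5.94, 5.80 and 5.63 in WT arrays, a difference of 0.50 (SE 0.11) short of the required fold. Its other 3 probe sets differed by 0.06 to 0.38.

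Among other deadenylases and poly(A)-binding proteins, 1 of 28 probe sets of 11 genes was called, beside 2.38% of all probe sets. The called probe set reads Pabpn1, the nuclear poly(A)-binding protein that controls tail length. Its values were 12.06 and 12.41 in null arrays, against 12.74, 13.06 and 13.11 in WT arrays. Both null values lay below all WT values, a difference of -0.73 (SE 0.18). The 3 other Pabpn1 probe sets differed by -0.25 to -0.10. Pabpc1, the main cytoplasmic poly(A)-binding protein and a partner of TOB proteins, chosen after its values were seen, read 14.00 and 13.65 in null arrays, against 13.79, 14.03 and 13.89 in WT arrays.

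Among RNA-binding proteins that recruit deadenylases, 1 of 56 probe sets of 18 genes was called, beside 2.38% of all probe sets. The called probe set reads Tnrc6a, a GW182 protein that links microRNA-loaded Argonaute to CCR4-NOT. It read 10.37 and 10.47 in null arrays, against 10.91, 11.07 and 11.10 in WT arrays, a difference of -0.61 (SE 0.08). Another Tnrc6a probe set read 10.43 and 10.42 in null arrays, against 10.57, 10.42 and 9.79 in WT arrays, and differed by 0.16 (SE 0.28). As with Btg1, the called fall was not seen in another probe set, where the genotypes overlapped.

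In the steps after deadenylation, decapping and 5′ to 3′ decay, 1 of 40 probe sets of 19 genes was called, beside 2.38% of all. Lsm3, a subunit of the LSM ring that binds shortened tails and also of the ring on U6 snRNA, read 8.19 and 8.07 in null arrays, against 7.53, 7.74 and 7.08 in WT arrays. The difference was 0.68 (SE 0.23), with no overlap. Dcp1b, a decapping cofactor chosen after its values were seen, read 1.91 and 2.61 in null arrays with 1 of its 3 probe sets, against 4.27, 2.81 and 4.95 in WT arrays. Its difference of -1.75 had an SE of 0.76 and was not called. Among partners and regulators of BTG/TOB proteins, 0 of 22 probe sets of 10 genes were called by limma, with 3 at an unadjusted p up to 0.05. Over all probe sets these shares were 2.38% and 5.59%. Ccnd1, the D cyclin whose expression TOB and BTG proteins lower, with the brightest of its 3 probe sets read 9.83 and 10.25 in null arrays, against 9.53, 9.91 and 9.86 in WT arrays. Smad4, a transducer of TGFβ signals, with the brightest of its 3 probe sets read 9.28 and 9.29 in null arrays, against 8.74, 9.01 and 8.46 in WT arrays, a difference of 0.55 (SE 0.19). Its other probe sets differed by 0.07 and 0.27, with overlapping genotypes.

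Because Btg2 belongs to the immediate early genes and to the targets of p53, both lists were read beside it. Of 22 immediate early and dissociation response genes, 3 were called lower in null HSCs and 0 higher. Over all measured genes 4.48% had a call in either direction. The calls came through 5 of 36 probe sets, beside 1.25% of all probe sets called lower. Of the 36, 27 had a mean of at least 5 in a genotype, and 525 of all 12936 such probe sets were called lower. Ier2, an immediate early gene, read 7.99 and 7.95 in null arrays, against 9.32, 9.004 and 9.46 in WT arrays, a difference of -1.29 (SE 0.15). The inducible Hsp70 gene Hspa1b was called lower with 3 probe sets, by -1.26 to -0.99, and shares sequence with its neighbour Hspa1a, so their signals may be mixed. Klf6, a zinc finger factor, was called with 1 of 5 probe sets, at -0.74. The probe sets of Fos and Egr1, chosen after their values were seen, differed by 0.02 (SE 0.27) and -0.30 (SE 0.09), and neither was called. Dusp1, a MAP kinase phosphatase also chosen after its values were seen, read 6.17 and 6.09 in null arrays, against 5.85, 5.81 and 4.73 in WT arrays, a difference of 0.67 (SE 0.42) that was not called. The median difference of the list was -0.11, beside -0.00254 over all probe sets.

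Of 17 measured p53 targets, 2 were called higher and 0 lower, through 2 of 31 probe sets, beside 1.13% of all called higher. Of the 31, 15 had a mean of at least 5 in a genotype, and 438 of all 12936 such probe sets were called higher. Ccng1, an atypical cyclin called with 1 of 3 probe sets, read 9.20 and 9.13 in null arrays, against 8.25, 8.63 and 8.41 in WT arrays, a difference of 0.74 (SE 0.13). Zmat3, an RNA-binding zinc finger protein, read 6.31 and 5.81 in null arrays, against 5.18, 5.51 and 5.23 in WT arrays, a difference of 0.75 (SE 0.20). Cdkn1a, a CDK inhibitor and target of p53 that was chosen after its values were seen, read 10.52 and 11.28 in null arrays, against 11.11, 10.59 and 11.39 in WT arrays. Over all the lists outside the members 10 of 235 probe sets were called, 3 higher and 7 lower, with a median difference of -0.00173. Over all probe sets 2.38% were called. Of the 235, 124 had a mean of at least 5 in a genotype, and 7.44% of all such probe sets were called.

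**Figure D4:**
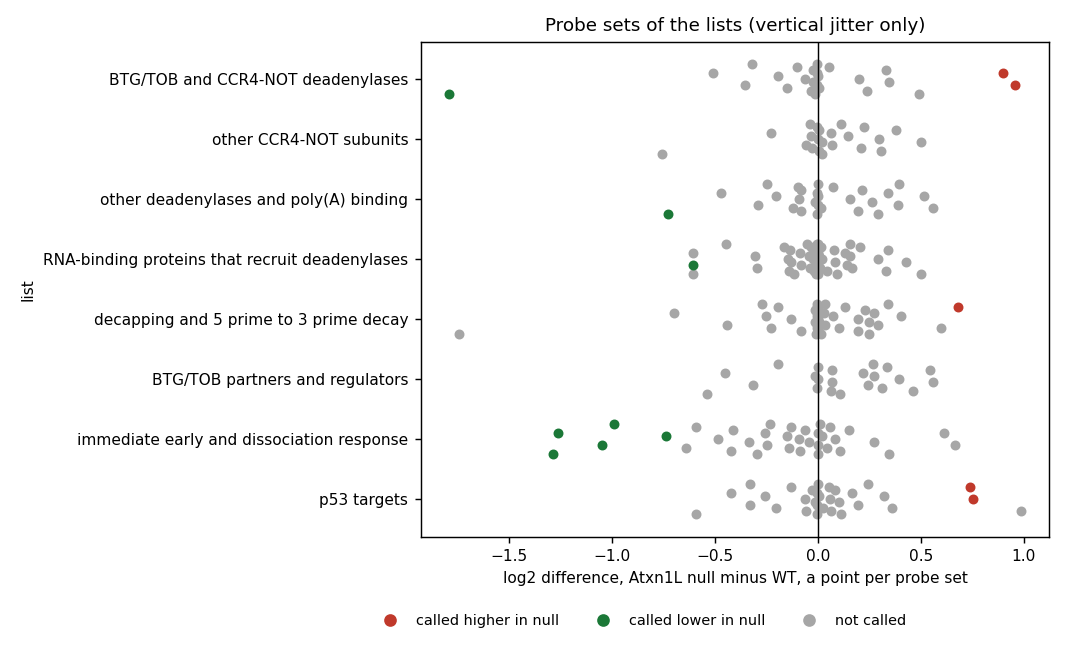
Log2 difference between Atxn1L null and WT HSCs (horizontal axis), a point per probe set, for the member genes (top row) and 7 lists of related genes (vertical axis). Red points were called higher and green points lower in null HSCs. Most points lie near 0, the Btg1 probe set at -1.79 lies farthest left, and the called immediate early points lie between -1.29 and -0.74.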

How the data were processed

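Expression in sorted HSCs was measured on 5 Affymetrix MOE430.2 arrays after linear T7 amplification. The deposited table holds log2 values that the authors made with GCRMA (background correction, quantile normalization, probe set summary; version not given in the sources used here). Base 2 was inferred from the values, which span the usual GCRMA range. Such amplification favours 3′ ends, which can alter probe sets far from them.

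Genotypes came from the labels, 2 null and 3 WT arrays. After 64 control probe sets were left out, 45037 entered limma 3.58.1 (lmFit, then eBayes with default settings, in R 4.3.3), with a mean per genotype and no block. Residual degrees of freedom were 3 and prior ones 0.771. The criterion of p and fold follows the paper's text, and Benjamini-Hochberg adjustment ran over all probe sets. Genes were named from the platform annotation, and Entrez IDs changed 0 member symbols. Of the probe sets fitted, 34945 name 1 gene, 932 several and 9160 none.

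Members and lists, written from general knowledge, were chosen with earlier results of these data known. Named were all members, Btg4, Atxn1l, called genes of each list, the 2 of highest mean where none was called, cell type markers, and the Gapdh and beta-actin controls. Other genes are said to be chosen later. For beta-actin the 3′ excess was 7.43 and 7.28 in null arrays, against 6.71, 6.60 and 6.40 in WT arrays. The fit was tested on simulated data. The paper calls the arrays biological replicates, each from pooled HSCs, without giving the number of mice in a pool. The p-values measure only the spread between these arrays, and their number limits the precision. Alternatives were another variance estimate, array weights, renewed normalization, filters, other criteria, other readings of several probe sets, a block for replicate number, and each array left out in turn.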

Additional observations from a re-analysis of the deposited data

How the results depend on the processing

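Of the 25 member probe sets, 20 kept their side of the criterion under all 15 alternatives that could be fitted to them, and 0 differences of a called probe set changed sign. Of the member probe sets, 2 higher and 1 lower were called as reported. None stayed after Benjamini-Hochberg adjustment (0 higher, 0 lower), where 0 and 1 of all 45037 probe sets, 0 of the Atxn1l and 0 of the list probe sets were left. Array weights, whose estimation stopped short of its tolerance, called 2 members lower, adding Cnot6, and turned the uncalled Btg1 probe set 1437455_a_at to -0.10, with 911 of all probe sets lower and 1 list probe set higher. Without probe sets that end in _s_at or _x_at, 1 member stayed higher and 1 Atxn1l probe set lower. With 1 reading per gene, the probe set of the highest mean left 1 member gene higher and 0 lower and 3 list genes lower, and the mean of a gene's probe sets left 0 and 0 members and 2 list genes lower.

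For the lists, 6 probe sets were higher with a variance trend and 6 without dim probe sets. By p alone 11 were higher and 12 lower, beside 1442 and 1075 of all probe sets, and by fold alone 7 and 15, beside 924 and 1362.

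Arrays of the same replicate number did not deviate together: their deviations correlated at -0.05 and -0.30 across probe sets. The deviations of 2 null arrays mirror each other, so the 2 values are not separate checks. The first null array correlated at 0.30 with the second WT array, and the second null array at 0.21 with the third. Whether arrays shared a batch under other numbers was not tested. With the replicate number as a block, 0 members were higher, 290 of all probe sets were higher, and 1 list probe set was higher and 4 lower.

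With 1 array left out in turn, 0 to 2 member probe sets were higher and 1 to 2 lower, 1 to 9 list probe sets higher and 2 to 8 lower, 1 to 2 of Atxn1l lower, and 350 to 1128 of all higher and 359 to 820 lower. A lone null array was assumed to vary like the WT arrays. The highest counts over all probe sets came without the second null array.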
